A study of Homo sapiens with 6 samples.

Results

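The genes HRAS, NRAS, ARAF, BRAF, MAP2K1, MAP2K2 and MAPK3 belong to the RAS-RAF-MEK-ERK cascade and were taken by their symbols from the deposited table, 7 of 19223 symbols. The study asked how DCC-2036 (rebastinib), a tyrosine kinase inhibitor, alters LoVo, an established human colon adenocarcinoma cell line, kept in medium with serum. RNA was sequenced from 3 Control libraries (vehicle, no DCC-2036) and 3 libraries of cells given 2.5 μM DCC-2036. The labels state 48 h for both groups, while a figure legend of the study states a shorter time for the treatment, so the time cannot be fixed from the sources. Nothing in the labels states that the 3 libraries of a group came from independent cultures, and p-values then measure the spread between these libraries, which may be technical. Other RAS, RAF and ERK genes of the cascade were not analysed here.

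In this cascade, small GTPases of the RAS family are switched on at the membrane by exchange factors that receptors recruit through adaptors, and are switched off by GTPase-activating proteins. Active RAS recruits RAF kinases, RAF phosphorylates the MEK kinases, and MEK phosphorylates ERK, which enters the nucleus and drives transcription for growth. The cascade is steered mainly by GTP loading and phosphorylation, which RNA values do not measure. It is a main growth pathway of the intestinal epithelium and is often mutated in colorectal tumours.

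The table gives normalised values per transcript that are not whole numbers and whose adjustment is not described in the sources, so reads per library are unknown. The column totals were 38997229 to 40587145 in Control and 43279603 to 48023306 in DCC-2036. Of the 12 colorectal epithelial markers checked, 7 were at 10 or more in every library, among them EPCAM, KRT8, KRT18, KRT19, CDH1, CDX2 and KRT20, whereas CDX1 was listed at 0 throughout and VIL1, CEACAM5, GPA33 and LGALS4 stayed under 10. The summed epithelial markers ran from 104483.5 to 115005.2 in Control and from 148345.2 to 188458.2 in DCC-2036, and KRT8 made up most of it. Of the 7 tested epithelial markers, KRT8 and CDH1 were called higher, KRT20 was called lower, and 4 were not called (limma). Over all tested genes 19.2% were called higher and 22.7% lower. Of the 10 markers of leukocytes, endothelium and fibroblasts, 2 were at 10 or more in every library (CD68 and COL1A1), PTPRC was listed at 0 throughout, and the sum ran from 632.17 to 673.14 in Control and from 706.22 to 842.34 in DCC-2036. The part of these shifts in the results below was not tested, and in bulk RNA fewer cells with a transcript and less of it per cell cannot be told apart.

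The upstream DNA of 3 of the genes is shown because MAP2K1 and MAP2K2 moved in opposite directions, MAPK3 was not called, and the study followed the transcription factor SP1, which binds GC boxes. Each line gives the 250 bases before the RefSeq start (GRCh38.p14) in the direction of the gene, with GC boxes (GGGCGG on either strand) in capitals. The gene bounds of GENCODE, given below, reach further out than these RefSeq starts. The MAPK3 window lies wholly within the GENCODE gene, and the MAP2K1 and MAP2K2 windows lie partly within it, so upstream refers to the RefSeq start only.

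MAP2K1 (chr15:66386662-66386911, forward strand): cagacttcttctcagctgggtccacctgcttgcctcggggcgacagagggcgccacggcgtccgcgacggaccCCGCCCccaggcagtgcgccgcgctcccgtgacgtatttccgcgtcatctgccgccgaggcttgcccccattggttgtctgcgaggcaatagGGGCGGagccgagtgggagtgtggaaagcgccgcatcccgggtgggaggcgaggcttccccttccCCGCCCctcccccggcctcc

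MAP2K2 (chr19:4124123-4124372, reverse strand): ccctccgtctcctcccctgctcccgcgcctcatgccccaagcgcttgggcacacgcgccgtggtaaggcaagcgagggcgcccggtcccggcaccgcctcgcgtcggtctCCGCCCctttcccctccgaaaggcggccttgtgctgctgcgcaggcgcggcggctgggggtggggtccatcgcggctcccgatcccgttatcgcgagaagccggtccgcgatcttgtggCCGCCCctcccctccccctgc

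MAPK3 (chr16:30123221-30123470, reverse strand): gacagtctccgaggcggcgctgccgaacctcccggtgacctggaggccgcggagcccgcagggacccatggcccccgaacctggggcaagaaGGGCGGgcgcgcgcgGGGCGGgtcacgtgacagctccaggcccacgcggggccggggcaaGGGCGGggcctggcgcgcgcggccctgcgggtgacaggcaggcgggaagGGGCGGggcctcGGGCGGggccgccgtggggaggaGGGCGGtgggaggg

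The MAP2K1 window held 3 GC boxes, which began 177, 85 and 20 bases before the start. The MAP2K2 window held 2, at 140 and 21 bases, and the MAPK3 window held 6. HRAS had 3, NRAS had 2, and ARAF and BRAF had 0. The HRAS and BRAF windows also lie wholly within the GENCODE gene, and those of NRAS and ARAF partly. MAP2K1 and MAP2K2 each also have an inner window, not used here, which held 0 GC boxes. Of 35116 RefSeq windows of the same length, 42.6% held at least 1 GC box and 13.9% held at least 3. The windows printed above all held GC boxes, and the part of GC boxes in the changes was not tested. An ETS core (CCGGAAG, either strand) was found in HRAS, in no other member, and in 8.52% of all windows. The E-box CACGTG was found in NRAS and MAPK3 and in 6.34% of all windows, and a TATA box (TATAAA) and a cyclic AMP response element (TGACGTCA) were found in 0 of the 7, against 10.7% and 1.65% of all windows. A match of letters is a description of the window and not a binding site.

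All 7 genes passed the filter on low values (at least 10 in at least 3 libraries), as did 12725 of the symbols, and were tested in one limma fit over these 12725 genes. Called genes are those with a Benjamini-Hochberg adjusted p-value under 0.01. Of the 7, MAP2K1 was called higher and MAP2K2 was called lower with DCC-2036. Among all tested genes 19.2% were called higher and 22.7% lower, so 1 of 7 in each direction is near the background. The DCC-2036 and Control values did not overlap for 6 of the 7, against 71.1% of all tested genes. The median log2 fold change was 0.02 over the 7 genes and -0.09 over all tested genes. With every library set to the same total, the latter became -0.29, and the higher genes made up 32.7% of the called instead of 45.8%.

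**Figure D1:**
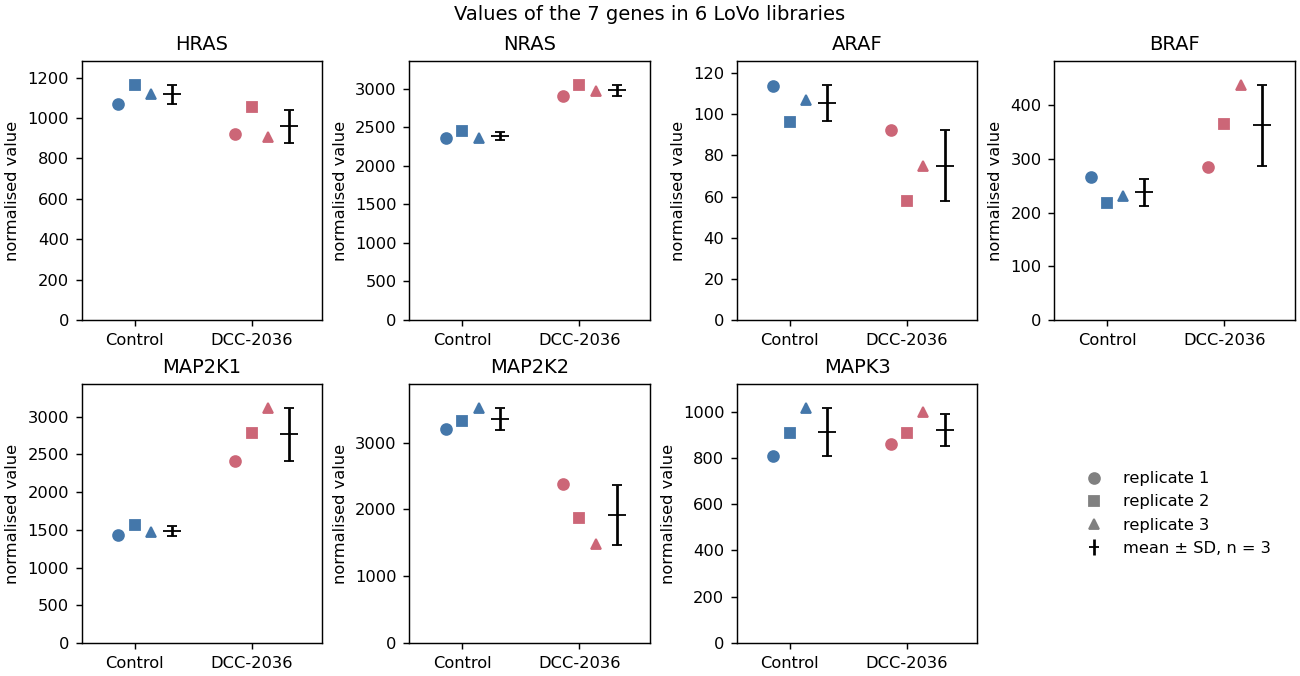
Normalised value (vertical axes, from 0) of each of the 7 genes in the Control and DCC-2036 libraries. Symbols mark replicates, and the bar beside them is the mean ± SD (n = 3). MAP2K1 lies above and MAP2K2 below its Control values in every DCC-2036 library, and the MAPK3 groups overlap.

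The kinases at the MEK step, which phosphorylate ERK, had the largest log2 fold changes of the 7 genes, in opposite directions. MAP2K1 encodes MEK1 and lies on chromosome 15 from 66386817 to 66492312, forward strand (GENCODE 29, GRCh38). Its values were 1429, 1560 and 1478 in Control against 2412, 2779 and 3115 in DCC-2036. All 3 DCC-2036 libraries stood clear of Control, and the mean rose from 1489 ± 66.3 (SD, n = 3) to 2769 ± 352 (SD, n = 3), 186% of Control. The log2 fold change was 0.89 (standard error, SE, 0.125, 95% interval 0.59 to 1.19, adjusted p = 0.00164, limma). The call was kept in all 18 alternative settings, between 0.69 and 1.01 on the log2 scale, with limma adjusted p-values of 0.000223 to 0.00969. MAP2K1 ranked 2190 of 12725 genes by p-value, so many genes changed more clearly.

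MAP2K2 encodes MEK2, the close relative of MEK1, and lies on chromosome 19 from 4090321 to 4124129, reverse strand. Its values were 3206, 3325 and 3521 in Control against 2379, 1870 and 1488 in DCC-2036. The groups did not overlap, and the mean fell from 3351 ± 159 (SD, n = 3) to 1912 ± 447 (SD, n = 3), leaving 57.1% of Control. The log2 fold change was -0.83 (SE 0.18, 95% interval -1.27 to -0.40, adjusted p = 0.00767, limma). This call was close to the limit. It was lost in 7 of 18 alternative settings. Among these were leaving out Control replicate 1 (limma adjusted p = 0.0245), Control replicate 2 (0.0274), Control replicate 3 (0.0313) or DCC-2036 replicate 2 (0.0272). The others were no filter on low values (0.0171), the replicate block (0.0227) and removal of the trend of GC content and length (0.0132). The direction was kept in all 18 settings, with adjusted p-values from 0.0015 to 0.0313 (limma).

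Reads on opposite strands cannot be told apart unless the counting used strand, which is not given in the sources used here. The GENCODE transcript paired with the MAP2K1 row shares 216 exonic bases with SNAPC5 and 432 with the antisense gene AC116913.1, both on the other strand. SNAPC5 had mean values of 242.7 in Control and 139.1 in DCC-2036, and AC116913.1 has no value here. The part of shared reads in the MAP2K1 value was not tested. GENCODE lists a processed copy of MAP2K1, MAP2K1P1, and how reads were divided among copies is also not given. MAP2K2 overlaps 0 other annotated genes.

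At the RAF step, BRAF had higher and ARAF lower values with DCC-2036, and neither passed the limit. BRAF encodes the RAF kinase with the highest basal activity toward MEK and lies on chromosome 7 from 140719327 to 140924928, reverse strand. Its values were 265, 218 and 230 in Control against 285, 366 and 437 in DCC-2036. The lowest DCC-2036 value was just above the highest Control value, and the log2 fold change was 0.59 (SE 0.178, 95% interval 0.16 to 1.02, adjusted p = 0.0265, limma). Without DCC-2036 replicate 1, the DCC-2036 library nearest to Control, it was 0.75 and passed the limit (adjusted p = 0.00495), the range over all alternatives being 0.00495 to 0.0866. With libraries scaled to equal totals it was 0.39 (limma adjusted p = 0.0693), the lowest of the alternatives. NDUFB2 on the other strand overlaps the BRAF locus by 3464 bases and shares 0 exonic bases with the paired BRAF transcript. Its mean went from 724 to 1443. GENCODE also lists the copy BRAFP1.

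ARAF, the RAF kinase encoded on the X chromosome (47561100 to 47571920, forward strand), is a weaker activator of MEK than BRAF. Its values were 114, 96.4 and 107 in Control against 92.2, 57.6 and 75.1 in DCC-2036. The groups did not overlap, though DCC-2036 replicate 1 lay close to the lowest Control library. The log2 fold change of -0.51 (SE 0.184, 95% interval -0.96 to -0.07) missed the limit (adjusted p = 0.0479, limma), and values from -0.71 to -0.22 were found over the alternatives. The 95% interval is that of a single gene and is not adjusted over genes. ARAF shares 23 exonic bases with SYN1 on the other strand, which had a mean of 24.67 in Control and 36.06 in DCC-2036, and GENCODE lists 3 processed copies, ARAFP1, ARAFP2 and ARAFP3.

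At the RAS step neither gene passed the limit, and both differences were small. NRAS, a membrane GTPase encoded on chromosome 1 (114704469 to 114716894, reverse strand), had values of 2363, 2447 and 2356 in Control against 2904, 3052 and 2972 in DCC-2036. These values were the tightest of the 7 genes within each group, with SDs of 0.0305 and 0.0359 on the log2 scale, and the groups did not overlap. The log2 fold change of 0.32 (SE 0.0903, 95% interval 0.10 to 0.53) did not pass (adjusted p = 0.0217, limma). It was 0.12 with libraries scaled to equal totals, and limma with a trend between mean and variance called it (adjusted p = 0.00754). The adjusted p-values over all alternatives ran from 0.00754 to 0.284.

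HRAS, encoded on chromosome 11 (532242 to 537287, reverse strand), had values of 1071, 1166 and 1118 in Control against 920, 1053 and 904 in DCC-2036. All 3 DCC-2036 values were below Control, DCC-2036 replicate 2 by a small margin. The log2 fold change was -0.22 (SE 0.107, 95% interval -0.48 to 0.03, adjusted p = 0.11, limma). It was -0.42 with libraries scaled to equal totals (adjusted p = 0.016, limma) and -0.14 with median-of-ratios scaling (adjusted p = 0.294), these being its extremes over the alternatives.

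MAPK3 encodes ERK1, the kinase at the end of the cascade, and lies on chromosome 16 (30114105 to 30123506, reverse strand). Its values were 808, 907 and 1017 in Control against 861, 907 and 998 in DCC-2036, with full overlap of the groups. The log2 fold change was 0.02 (SE 0.126, 95% interval -0.28 to 0.32, adjusted p = 0.893, limma), so changes within that interval were not detectable with 3 libraries per group. The sign turned to -0.18 with equal totals. The exact permutation test (two-sided) gave p = 0.1 for the other 6 genes, the smallest value that 3 against 3 libraries allow, and p = 1 for MAPK3.

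**Figure D2:**
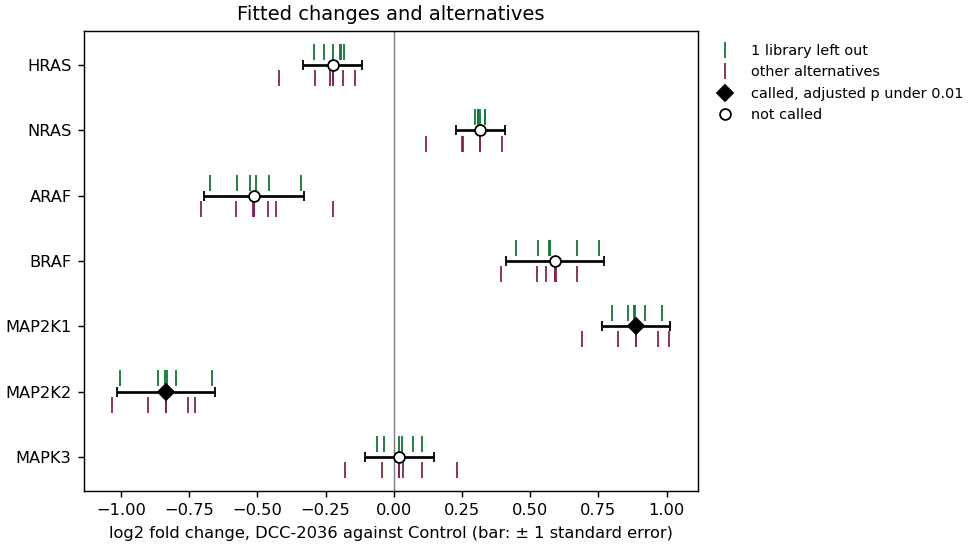
Log2 fold change (horizontal axis) of each gene, with ± 1 standard error. Filled diamonds are called genes and open circles are not called, green ticks above leave out 1 library and purple ticks below are the other alternatives. MAP2K1 stays between 0.69 and 1.01, and MAPK3 lies on both sides of 0.

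The ratio of 2 genes within a library does not depend on a scaling factor of that library. The pairs were set side by side after their values had been seen. MAP2K1 divided by MAP2K2 was 0.446, 0.469 and 0.42 in Control against 1.01, 1.49 and 2.09 in DCC-2036. These are values not divided by length. Per kilobase of transcript the ratio was 0.226 ± 0.013 in Control and 0.779 ± 0.28 in DCC-2036 (SD, n = 3). Both means were below 1. This takes the deposited values as not already adjusted for length, which the sources do not state. The shift and not the order of the genes can thus be read from the ratio. The mean log2 ratio was higher by 1.72 in DCC-2036 (pooled SD 0.374 over libraries within groups), a 3.3-fold shift. It stayed between 1.47 and 1.99 when single libraries were left out.

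BRAF divided by ARAF was 2.33, 2.26 and 2.15 in Control against 3.1, 6.35 and 5.82 in DCC-2036. The mean log2 ratio was higher by 1.11 (pooled SD 0.402), a 2.16-fold shift, and DCC-2036 replicate 1 was again nearest to Control. Without single libraries the difference lay between 0.92 (without DCC-2036 replicate 2) and 1.44 (without DCC-2036 replicate 1). NRAS divided by HRAS was 2.21, 2.1 and 2.11 in Control against 3.16, 2.9 and 3.29 in DCC-2036. Its mean log2 ratio was higher by 0.54 (pooled SD 0.0712), a 1.46-fold shift with the smallest spread of the 3 pairs. Since each pair sets a gene with higher values over one with lower values, the direction and the separation of the ratios follow from the single genes, and no test of them is given.

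GC content differed between the partners of each pair, and the log2 fold changes of all tested genes varied with it. In the paired GENCODE transcripts it was 50.35% for MAP2K1 and 65.51% for MAP2K2, 41.07% for BRAF and 58.87% for ARAF, and 38.41% for NRAS and 65.77% for HRAS. In each pair the partner with the lower GC content had the higher log2 fold change. Over the 12293 tested genes with a GC value, the median log2 fold change was 0.09 in the lowest of 5 equal GC classes and -0.27 in the highest. With the trend of GC content and length taken out, an alternative added after seeing the data, MAP2K1 was at 1.01 and still called, MAP2K2 was at -0.73 and no longer called (adjusted p = 0.0132, limma), BRAF was at 0.56, ARAF at -0.22, NRAS at 0.25, HRAS at -0.23 and MAPK3 at 0.23. MAP2K1 was the only one of the 7 called in that fit.

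**Figure D3:**
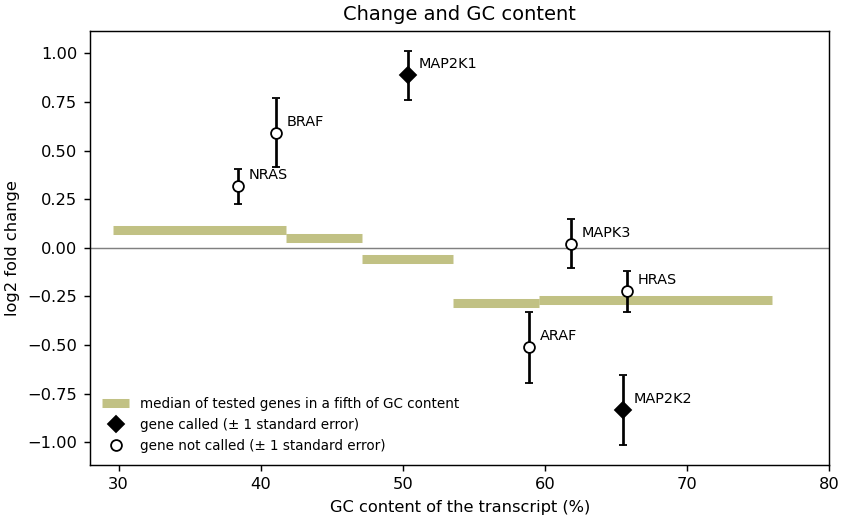
Log2 fold change (vertical axis) against GC content of the transcript in percent for the 7 genes, with ± 1 standard error. Bars give the median of tested genes in each of 5 equal classes of GC content, from 0.09 at low to -0.27 at high GC content. MAP2K1 and MAP2K2 lie further from 0 than the bar of their class.

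Levels were compared between genes as values per kilobase of the paired GENCODE transcript, whose untranslated ends may differ from those of the RefSeq row. Whether the deposited values were already adjusted for length is not given in the sources. The levels and percentiles per kilobase, here and for DCC-2036 below, assume that they were not. In Control, MAP2K2 was highest at 1932 ± 91.8 per kilobase (SD, n = 3), followed by HRAS at 907 ± 38.6 and NRAS at 537 ± 11.4. MAPK3 at 489 ± 56.1 did not differ from NRAS or from MAP2K1 at 437 ± 19.5 beyond the spread. ARAF at 42.2 ± 3.5 and BRAF at 36.8 ± 3.83 were by far the lowest. Their ranges of 1 SD overlapped, though within Control libraries BRAF divided by ARAF was 0.871 ± 0.034 per kilobase. ARAF and BRAF were thus at the 22.9 and 21.0 percentile of 12293 tested genes with a length, whereas the other members stood between the 75.4 percentile (MAP2K1) and the 94.9 percentile (MAP2K2).

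In DCC-2036, MAP2K2 was at 1103 ± 258 per kilobase, MAP2K1 at 812 ± 103 and HRAS at 778 ± 66.2, and these neighbours overlapped within their spread. NRAS stood at 669 ± 16.7, MAPK3 at 495 ± 37.4, BRAF at 56.1 ± 11.7 and ARAF at 29.9 ± 6.9. Per kilobase of coding sequence, which the pairing fixes, NRAS was highest in both groups (4213 and 5248). MAP2K1 went from 1263 to 2349 and MAP2K2 from 2792 to 1594 between Control and DCC-2036. ARAF (57.8 and 41.0) and BRAF (103 and 158) were again lowest. Values that include reads on untranslated ends stand too high on this scale where those ends are long. The paired NRAS transcript has 567 coding bases of 4449, and that of MAP2K2 has 1200 of 1734. ARAF and BRAF were thus lowest on both length scales in both groups, while the highest gene, the order of ARAF and BRAF in Control and that of MAP2K1 and MAP2K2 in DCC-2036 depended on the scale.

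The table lists 14 transcripts of the 7 genes, of which 4 genes have 1 (NRAS, BRAF, MAP2K1 and MAP2K2). Transcripts of a gene may share reads, which was not measured, so their values were not taken as independent. When all 32323 transcripts above the filter were tested as rows, 42.2% were called, against MAP2K1 and MAP2K2 alone of the 14. HRAS has 4 rows. NM_176795.4, paired with a GENCODE transcript of 6 exons and 510 coding bases, had the highest mean. NM_001130442.2, NM_001318054.1 and NM_005343.3 had 97.0%, 93.5% and 91.3% of it over the 6 libraries. These rows are all paired with the same GENCODE transcript (5 exons, 567 coding bases), so how their structures differ is not shown here. The log2 fold changes of the 4 HRAS rows were -0.22, -0.22, -0.15 and -0.15, in the order named. None passed (adjusted p = 0.106 to 0.269, limma).

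ARAF has 3 rows. NM_001256196.1 and NM_001654.4 (16 exons) had almost the same mean values, 105.7 and 104.8 for Control against 74.95 and 74.26 for DCC-2036. The short NM_001256197.1, with 6 exons and 558 coding bases, had values of 53.8, 37.6 and 34.8 in Control against 42.5, 26.2 and 40.8 in DCC-2036. Those groups overlapped, and the short form stood at 39.8% of the highest row in Control and 48.7% in DCC-2036. MAPK3 has 3 rows as well. NM_001109891.1 and NM_001040056.2 stood at 71.6% and 61.0% of NM_002746.2 in Control and at 73.1% and 61.5% in DCC-2036. The shares of the MAPK3 transcripts thus lay within a few percent of each other in the groups.

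Patterns over the 6 libraries like those of the members were looked for among 114 other genes, the tested pathway genes and the other members, as a description in which the difference between the groups dominates. The closest was GRB2 for MAP2K1 (r = 0.997), MKNK1 for MAP2K2 (r = 0.988), YWHAZ for NRAS (r = 0.992), RHEB for BRAF (r = 0.961), ELK1 for HRAS (r = 0.94) and CDC37 for MAPK3 (r = 0.717). Among the members, MAP2K1 and MAP2K2 ran opposite to each other (r = -0.971).

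The other genes of the pathway were followed in 8 lists with 118 genes. Of these 108 were tested, and 23 were called higher and 24 lower, 61 not being called. The median log2 fold change was -0.04. These shares are close to the 19.2% and 22.7% of all tested genes. No single list was tested as a set. With libraries scaled to equal totals 17 of the list genes were called higher and 30 lower. Among the genes named from these lists, the call was lost in 10 of 18 alternative settings for HSP90AA1, in 8 for SRF, in 7 for CCND1, RASGRP2, RASSF5 and RAP1A, in 6 for MAPK6 and MKNK1, in 5 for SOS2, YWHAH and SPRED3 (of 17 for SPRED3), in 4 for ELK3 and MAPK13, and in 3 for PGGT1B and SPRED2. Each of these lost it without Control replicate 2 and without Control replicate 3. All but MAPK13 and SPRED2 also lost it without Control replicate 1, and all but PGGT1B, SPRED2 and SPRED3 without DCC-2036 replicate 2. With equal totals RASSF5 (0.58), RAP1A (0.40), MAPK6 (0.40) and SRF (0.25) were not called.

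Upstream of RAS, adaptors and exchange factors changed in both directions. Of 14 tested genes, 3 were called higher and 2 lower, against 19.2% and 22.7% of all tested genes. GRB2, the adaptor that brings the exchange factor SOS to receptors, had values of 5129, 5392 and 5682 in Control against 11217, 14023 and 17054 in DCC-2036. Every DCC-2036 library was far above every Control library, and the log2 fold change was 1.36 (SE 0.167, limma adjusted p = 0.00102). The docking protein GAB2 rose by a log2 fold change of 1.41 and the exchange factor SOS2 by 0.71. IRS1, the adaptor of the insulin and IGF receptors, went from 2537, 2290 and 2424 to 706, 527 and 365. It was clear of Control in all 3 libraries, with a log2 fold change of -2.23 (SE 0.236, limma adjusted p = 0.000674), and RASGRP2, another exchange factor, fell by 1.14.

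Among 16 tested GTPase-activating proteins and other negative regulators, 4 were called higher and 3 lower, against 19.2% and 22.7% of all tested genes. RASA2, a GTPase-activating protein of RAS, had the largest rise (log2 fold change 1.42), and SPRED2, an inhibitor of RAF activation, rose by 0.73. RASSF5, a RAS effector, rose by 0.78. LZTR1, an adaptor for the degradation of RAS proteins, went from 1085, 961 and 1038 in Control to 448, 442 and 479 in DCC-2036, with little spread in either group (log2 fold change -1.17, standard error 0.101, adjusted p = 0.000385, limma). SPRED3, a relative of SPRED2, fell by 1.78.

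Of the 10 genes for membrane processing and transport of RAS, 5 were called higher and 2 lower. The shares over all tested genes were 19.2% and 22.7%. FNTB, the beta subunit of farnesyltransferase that lipidates RAS, rose by a log2 fold change of 1.32. PGGT1B, the matching subunit of a related prenyl transferase, rose by 1.30, and ZDHHC9, a palmitoyltransferase of HRAS and NRAS, rose by 1.27. The fallers were PDE6D, a carrier of farnesylated proteins (-1.62), and RCE1, the protease that trims them (-1.06). Among 12 tested RAS-like GTPases 1 was called higher, RAP1A (0.60), and 4 lower, with DIRAS1 at -1.50, RAP2B at -1.14 and RIT1 at -1.13.

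Scaffolds and RAF regulators had 7 of 21 tested genes called higher and 2 lower, against 19.2% and 22.7% of all tested genes. LAMTOR3, a MEK1-binding scaffold, had values of 221, 303 and 233 in Control against 698, 762 and 978 in DCC-2036. The groups were far apart, with a log2 fold change of 1.68 (SE 0.182, limma adjusted p = 0.000704). PEBP1, an inhibitor of RAF signalling to MEK, rose by 1.20 and the 14-3-3 protein SFN by 1.12. The 14-3-3 protein YWHAH fell by 0.66 and HSP90AA1, a chaperone for RAF kinases, by 0.78.

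Downstream of ERK, 1 of 11 tested kinases and ternary complex factors was called higher, SRF (0.45). In this list 4 were called lower, among them MKNK1 (-0.94), ELK3 (-0.90) and RPS6KA5 (-0.87). Over all tested genes 19.2% were called higher and 22.7% lower. Of 14 tested MAP kinases and activators outside the ERK branch, 2 were called higher, MAPK15 (2.30) and MAPK6 (0.60), and 4 lower, with MAPK7 at -2.01, MAPK12 at -1.18 and MAPK13 at -0.85. MAPK15 is a low gene, with values of 29.05, 34.2 and 40.6 in Control against 112, 161 and 285 in DCC-2036.

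Among the 10 transcripts known to follow ERK activity, 0 were called higher (limma) and 3 were called lower. The called shares over all tested genes were 19.2% and 22.7%. At an unadjusted p under 0.05, 1 was higher (SPRY2) and 5 lower, against 30.5% and 36.1% of all tested genes. DUSP6, the phosphatase that switches off ERK, had values of 3390, 3190 and 3300.4 in Control against 1643, 1384 and 1173 in DCC-2036. Every DCC-2036 library lay far below Control. Its log2 fold change was -1.25 (SE 0.142, limma adjusted p = 0.00084). The transcription factor ETV4 fell from 1112, 1099 and 1082 to 486, 445 and 470.2, a log2 fold change of -1.23, and CCND1, the cyclin that starts the cell cycle, by 0.77. The call of CCND1 was lost without Control replicate 1, 2 or 3 or DCC-2036 replicate 2 (limma adjusted p = 0.0245, 0.0185, 0.0242 and 0.0212). The other 7 transcripts that follow ERK activity were not called, with SPRY4 at -0.40, PHLDA1 at -0.52, ETV5 at -0.10, DUSP4 at -0.08, EPHA4 at -0.14, EPHA2 at 0.02 and SPRY2 at 0.40. The list median was -0.27 against -0.09 for all tested genes.

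**Figure D4:**
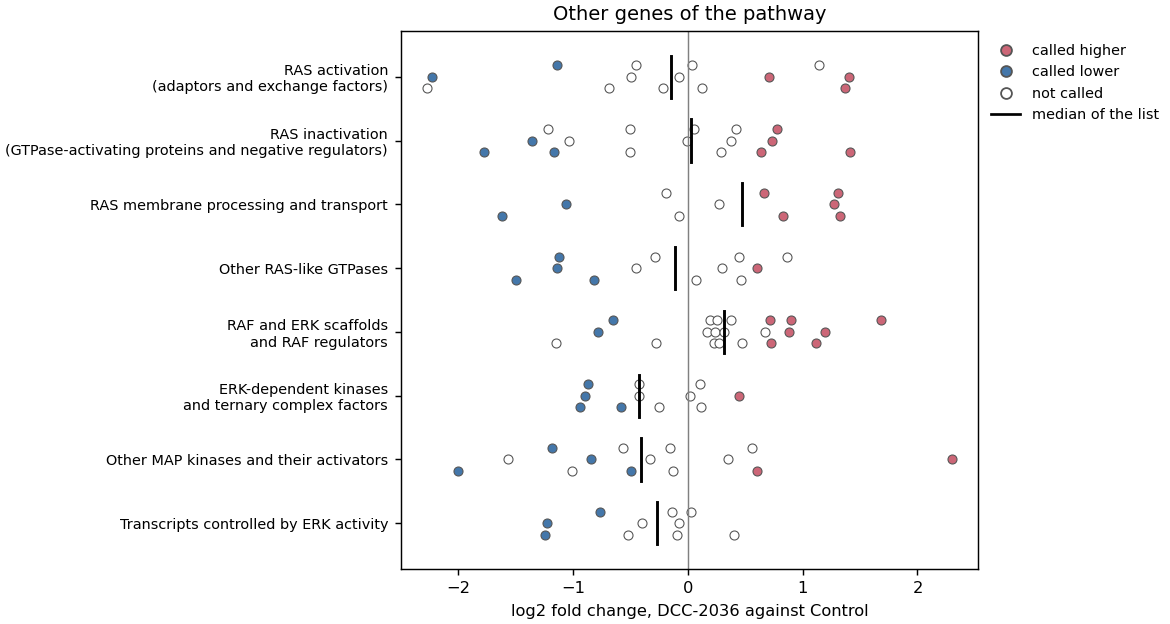
Log2 fold change (horizontal axis) of the tested genes of 8 pathway lists, 1 point per gene, with red points called higher, blue points called lower and white points not called. The black line is the list median, from -0.43 (ERK-dependent kinases) to 0.47 (RAS membrane processing).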

How the data were processed

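RNA of LoVo cells was measured in 3 Control and 3 DCC-2036 libraries, grouped by their titles. The authors deposited 1 table of RefSeq mRNA rows with a normalised signal per library that is not whole and whose adjustment is not described, so depth is unknown and no counting interval can be given. The aligner, counter, build and strand setting are not given in the sources used here. The deposited log2 fold change, p-value and q-value columns hold the authors' comparison and were not used. The table has 0 other columns of sample values.

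One transcript per symbol, that with the highest mean, was kept. Genes needed values of 10 or more in no fewer than 3 libraries, and log2(value + 1) was tested with limma 3.58.1 in R 4.3.3, two-sided, without covariates, adjusted by Benjamini-Hochberg over all 12725. This understates changes of low genes. The fit was also tested on simulated data. Permutation tests used scipy 1.17.1 in Python 3.11.15. Locations, lengths and GC content came from GENCODE 29, paired by RefSeq accession for 96.61% of tested genes. Promoter sequences came from RefSeq on GRCh38.p14, and all 7 genes matched. MAP2K1 and MAP2K2 have 2 windows each, of which the outer one was used.

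The members and lists were chosen with earlier results of these data known. Named genes were the members with every transcript, up to 3 highest and 3 lowest called genes without overlap in each list, and the closest pattern to each member. One gene that met this rule is not reported here. SPRY4, PHLDA1, ETV5, DUSP4, EPHA4, EPHA2, SPRY2 and genes that overlap a member were added after their values were seen.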

Additional observations from a re-analysis of the deposited data

How the results depend on the processing

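Alternatives were other scalings, filters, a pseudocount of 0.1, summed or separate transcripts, limma with a trend, a replicate block, single libraries left out, an adjusted p limit of 0.05 and, added after seeing the data, removal of the GC and length trend. Tests on read counts were not run, as the table holds no counts. Of the 7 genes, MAP2K1 and HRAS kept direction and side of the limit in all 18 settings. MAP2K2 (-0.83) lost its call without a filter on low values and with the replicate block at an unaltered -0.83, and with the GC and length trend removed (-0.73). Leaving out single libraries gave -1.01 to -0.67. BRAF (0.59), NRAS (0.32) and ARAF (-0.51) passed a limit of 0.05, NRAS (0.32) also passed under limma with a trend, and BRAF ran from 0.45 to 0.75 without single libraries. MAPK3 turned negative with equal totals (-0.18) and upper quartile scaling (-0.0445), and ran from -0.062 to 0.10 without single libraries. The cause of these moves was not tested.

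Of the 7 genes, 1 was called higher in most settings, 2 under limma with a trend, 3 at the limit of 0.05, and 1 to 2 without single libraries. The number called lower was 0 without a filter, with the replicate block and with the GC and length trend removed, 2 at the limit of 0.05, and 0 to 1 without single libraries. Over all tested genes, the replicate block gave 1202 higher and 1909 lower and separate transcripts gave 6379 and 7250, while single libraries left out gave 928 to 2675 higher and 1514 to 3507 lower. The low counts came from leaving out Control replicate 1 (1054 and 1593), Control replicate 2 (1000 and 1514), Control replicate 3 (992 and 1525) or DCC-2036 replicate 2 (928 and 1708). In the pathway lists, 10 genes were higher with the replicate block and 35 at the limit of 0.05, and 9 to 28 higher and 13 to 30 lower without single libraries. Of the 37 list genes that met the naming rule, 37 kept their direction and 21 their call in every setting run.

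The replicate numbers do not pair the libraries, since deviations of same-numbered libraries correlated at 0.081, -0.0352 and -0.00329 over genes. The depth is unknown, so no counting error can be given even for ARAF, the member with the lowest values.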
